A study of Mus musculus with 6 samples.

Results

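The neuronal immediate early genes measured here were Fos, Fosb, Junb, Egr1, Egr2, Egr4, Arc, Npas4, Nr4a1 and Ier2, 10 of the 54532 gene identifiers in the table. They were chosen by symbol through the GENCODE M21 annotation, with no cut on their values, but earlier results of these data were known. At postnatal day 15, RNA of mouse brains was sequenced as 3 Angptl2-/- and 3 Angptl2+/+ libraries, labelled as brain with all cell types. The study asked which transcripts differ in brains that lack ANGPTL2, a secreted angiopoietin-like protein. The Angptl2-/- mice, on a C57BL/6 background, lack exon 2. They came from breeding male Angptl2 fl/fl mice that carry Stra8-cre, a recombinase of the male germ line, with wild-type females, so that the deletion passes through the germ line and is not specific to neurons. Neither the labels nor the methods say how the brains were dissected, when or how the mice were handled before collection, or that each library came from a separate mouse. The p-values below therefore measure the spread between these libraries, which may be technical in part. Transcripts that mark sex differed within each genotype (below), so its libraries did not all come from the same mouse.

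Immediate early genes are transcribed within minutes of a stimulus from factors that are already present in the cell. In neurons, synaptic input and calcium entry activate kinases that act on CREB and on serum response factor with its partners at the promoters of these genes. Most of the products are transcription factors that switch on later genes, and Arc acts at the synapse itself. Their transcripts are short-lived, and their level in brain tissue is widely used as a record of recent neuronal activity. RNA from whole tissue cannot tell fewer expressing cells from less RNA per cell.

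All 10 genes had their highest level in the same library, Angptl2+/+ replicate 3, and the genotype comparison turned on it. With all 6 libraries every log2 fold change (the log2 difference, Angptl2-/- minus Angptl2+/+) was negative, between −1.00 and −0.04 with a median of −0.47, against −0.00 over the 14862 genes tested. Without Angptl2+/+ replicate 3 the median was 0.09, with 6 genes positive and 4 negative. No member passed an adjusted p under 0.05 in either fit.

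RefSeq promoter sequences of GRCm38.p6 were held for 7 of the 10 genes, and Egr1, Arc and Ier2 had no entry. As examples, promoters of 4 of the 7 genes are shown, each as the 250 bases before a RefSeq start on the strand of the gene, 5′ to 3′. Whether elements in them bear on the levels measured here was not tested. Capitals mark TGACG on either strand (read as CGTCA on the other), the core of the cAMP response element that CREB binds, and the CArG box, the element bound by serum response factor. Fos is the best studied gene of the group, and the window lies at chr12:85473640-85473889 on the plus strand. Egr2 held a CArG box with a TGACG on each side of it at chr10:67537619-67537868 on the plus strand. Npas4 is at chr19:4989972-4990221 on the minus strand, with 2 close TGACG matches on opposite strands, and Nr4a1 at chr15:101266596-101266845 on the plus strand, with 4 matches. The windows of Fosb and Junb, with 1 match each, and of Egr4, with 2, are not shown.
Fos: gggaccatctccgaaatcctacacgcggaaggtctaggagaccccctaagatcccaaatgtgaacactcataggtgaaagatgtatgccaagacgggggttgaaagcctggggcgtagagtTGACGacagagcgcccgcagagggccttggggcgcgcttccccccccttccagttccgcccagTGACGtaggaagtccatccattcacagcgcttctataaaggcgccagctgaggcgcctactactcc
Egr2: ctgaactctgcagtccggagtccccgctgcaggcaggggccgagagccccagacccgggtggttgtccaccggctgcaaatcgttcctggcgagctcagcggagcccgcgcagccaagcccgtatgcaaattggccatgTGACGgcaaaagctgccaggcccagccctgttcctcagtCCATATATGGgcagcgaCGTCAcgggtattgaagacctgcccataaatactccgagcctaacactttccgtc
Npas4: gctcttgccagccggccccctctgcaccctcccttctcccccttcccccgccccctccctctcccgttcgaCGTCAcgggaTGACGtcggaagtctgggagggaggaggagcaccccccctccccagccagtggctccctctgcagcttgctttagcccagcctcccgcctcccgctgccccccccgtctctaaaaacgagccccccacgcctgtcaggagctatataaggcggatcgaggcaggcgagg
Nr4a1: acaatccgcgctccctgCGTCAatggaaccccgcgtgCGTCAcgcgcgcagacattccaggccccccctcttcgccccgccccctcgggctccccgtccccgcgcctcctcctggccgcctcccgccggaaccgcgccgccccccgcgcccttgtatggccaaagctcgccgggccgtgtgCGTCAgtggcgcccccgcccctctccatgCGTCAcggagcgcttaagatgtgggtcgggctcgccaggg
TGACG stood in at least 1 window of 7 of the 7 genes (9 of their 11 windows), against 17.8% of 32851 windows of the same length and 19.8% of 27025 genes. The CArG box stood in 1 of the 7 member genes, Egr2, in 4 of its overlapping or neighbouring windows, against 1.62% of all genes and 1.47% of all windows. The full palindrome TGACGTCA, which contains TGACG, was in 0 of the 11 windows and in 1.55% of all windows. The site of the EGR factors themselves, searched as GCGTGGGCG or GCGGGGGCG, was present in 2 of the 7 genes, Fosb and Nr4a1, against 3.47% of all genes. It stood in 2 of the 11 windows, against 3.06% of all windows. An AP-1 site, searched as TGACTCA or TGAGTCA, was found in 0 of the 11 windows and in 4.46% of all windows. These matches describe letters in a window of fixed length and are not measured binding.

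**Figure D1:**
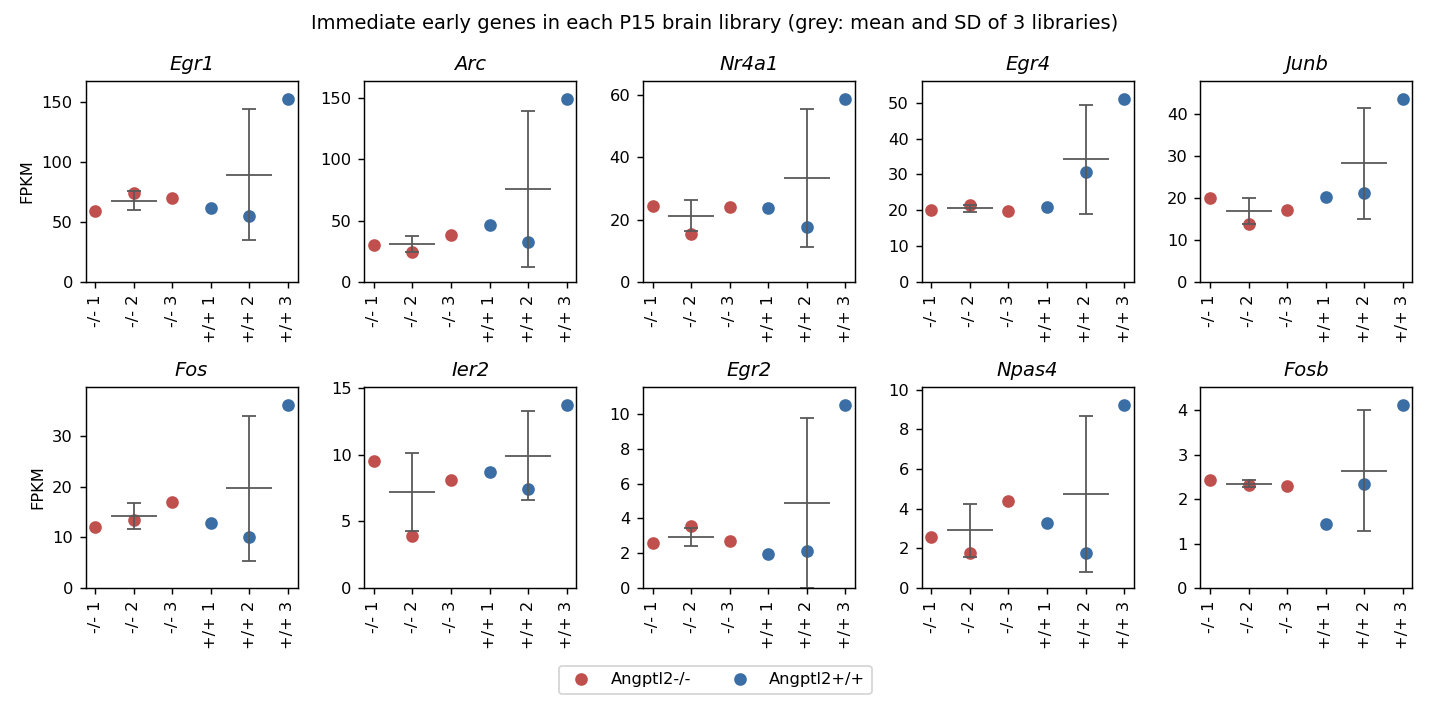
FPKM of the 10 immediate early genes (y axes, each starting at 0) in 3 Angptl2-/- (red) and 3 Angptl2+/+ (blue) libraries, with the mean and SD of each genotype in grey. Angptl2+/+ replicate 3 is the highest point in every panel, at 149 FPKM for Arc and 4.11 FPKM for Fosb, and the other 5 libraries lie below it.

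Levels are given as FPKM, the fragments of a gene divided by its length in kilobases and by the size of the library, so they can be compared between genes per length. Egr1 was the most abundant member, with a mean of 78.4 FPKM over the 6 libraries, followed by Arc (53.3), Egr4 and Nr4a1 (27.3 each), Junb (22.6) and Fos (16.9). Ier2 (8.56), Egr2 (3.91), Npas4 (3.82) and Fosb (2.49) made up the lower part of the order. Egr1 was above Arc, Arc above Egr4, Fos above Ier2 and Ier2 above Egr2 in 6 of 6 libraries. Neighbours that did not keep their order beyond the spread were Egr4 and Nr4a1, with Egr4 higher in 2 of 6 libraries (mean log2 ratio 0.05 ± 0.46, SD, n = 6), Nr4a1 and Junb (5 of 6, 0.23 ± 0.27), Egr2 and Npas4 (4 of 6, 0.01 ± 0.66) and Npas4 and Fosb (4 of 6, 0.42 ± 0.76). Junb was above Fos in 5 of 6 libraries (0.46 ± 0.43). The rarest members were still well sampled. Calculated fragments ran from 100 for Ier2 in Angptl2-/- replicate 2 to 11563 for Egr1 in Angptl2+/+ replicate 3, and the counting error (1 SD) was at most 10% of the value.

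The AP-1 genes were described first. Fos (ENSMUSG00000021250, GRCm38 chr12:85473890-85477273, plus strand) encodes the classical partner of the JUN proteins in AP-1. It was at 12, 13.5 and 17.1 FPKM in Angptl2-/- replicates 1 to 3, against 12.8, 10 and 36.1 FPKM in Angptl2+/+ replicates 1 to 3. The genotypes overlapped, and Angptl2+/+ replicate 3 was 3.17-fold above the mean of the other Angptl2+/+ libraries. The means were 14.2 ± 2.58 and 19.7 ± 14.3 FPKM in Angptl2-/- and Angptl2+/+ (SD, n = 3 each), and the log2 fold change was −0.25 with a standard error (SE) of 0.44 (limma, Benjamini-Hochberg adjusted p = 0.797). With that library left out it was 0.31, with an adjusted p of 0.363 from limma.

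Fosb (ENSMUSG00000003545, chr7:19302696-19310051, minus strand) encodes another FOS protein, whose truncated ΔFosB form accumulates with repeated stimulation. The table gives 1 value per gene and does not separate these forms. Its levels were 2.43, 2.32 and 2.3 FPKM in Angptl2-/- brains, against 1.45, 2.35 and 4.11 FPKM in Angptl2+/+ brains. The Angptl2-/- libraries were nearly equal and lay inside the Angptl2+/+ range. The log2 fold change was the smallest among the members, at −0.04 ± 0.33 (SE, adjusted p = 0.961, limma), and 0.33 without Angptl2+/+ replicate 3.

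Junb (ENSMUSG00000052837, chr8:84974484-84978718, minus strand), a JUN family partner in AP-1, was the 1 member whose genotypes did not overlap. It was at 19.9, 13.7 and 17 FPKM in Angptl2-/- brains, against 20.1, 21.1 and 43.5 FPKM in Angptl2+/+ brains. The closest libraries, Angptl2-/- replicate 1 and Angptl2+/+ replicate 1, were almost equal, and again Angptl2+/+ replicate 3 stood apart. Its log2 difference was −0.66 (SE 0.30, 95% interval −1.37 to 0.05, limma), with a nominal p of 0.0639 and an adjusted p of 0.328. By exact permutation (two-sided) p was 0.1, the smallest that 3 libraries against 3 allow. The value was −0.30 when Angptl2+/+ replicate 3 was left out (adjusted p = 0.333, limma). Junb shares 351 bases with Prdx2 on the plus strand (chr8:84969587-84974834), which had 65 to 70.5 FPKM. Whether counting used strand is not stated, so fragments in the shared bases cannot be assigned to either gene with certainty.

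The EGR genes encode zinc finger transcription factors that are induced by calcium and growth factor signals. Egr1 (ENSMUSG00000038418), also known as Zif268, was at 58.8, 74 and 70.1 FPKM in Angptl2-/- libraries, against 61.1, 54.6 and 152 FPKM in Angptl2+/+ libraries. Angptl2+/+ replicate 1 lay at the low end of the Angptl2-/- values, replicate 2 below all of them, and replicate 3 was 2.25-fold above the Angptl2-/- mean. Egr1 averaged 67.6 ± 7.91 FPKM in Angptl2-/- and 89.2 ± 54.4 FPKM in Angptl2+/+ (SD, n = 3 each). The log2 difference of −0.24 (SE 0.36, adjusted p = 0.751, limma) had the opposite sign without Angptl2+/+ replicate 3, at 0.22 (adjusted p = 0.372, limma).

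Egr2 (ENSMUSG00000037868, chr10:67535475-67542188, plus strand), known as Krox20, is also the master factor of myelination in Schwann cells of peripheral nerves. Of the 7 genes with promoter sequence, it was the only one with a CArG box inside the windows searched. Bases outside these windows were not searched, so the other genes may hold a CArG box further from the start. Egr2 had 2.61, 3.54 and 2.69 FPKM in Angptl2-/- brains, against 1.98, 2.14 and 10.5 FPKM in Angptl2+/+ brains. The Angptl2-/- libraries were all above Angptl2+/+ replicates 1 and 2 and all far below Angptl2+/+ replicate 3. That library was 5.11-fold above the mean of the other Angptl2+/+ libraries, the largest ratio among the members, from 606 fragments against 120 and 129. Counting error alone gave intervals of 9.69 to 11.4 FPKM for replicate 3 and 1.78 to 2.54 FPKM for replicate 2 (95%, exact Poisson). For Egr2 the log2 difference was −0.28 (SE 0.59, adjusted p = 0.83, limma). Without Angptl2+/+ replicate 3 it was 0.49, with a nominal p of 0.0348 and an adjusted p of 0.229 (limma).

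Egr4 (ENSMUSG00000071341, chr6:85511121-85513589, minus strand), which in the brain is expressed mainly in neurons, was even across the Angptl2-/- libraries, at 20.2, 21.5 and 19.7 FPKM, against 21, 30.6 and 51 FPKM in Angptl2+/+ libraries. The genotypes overlapped through Angptl2+/+ replicate 1 only. The mean was 20.5 ± 0.973 FPKM in Angptl2-/- and 34.2 ± 15.3 FPKM in Angptl2+/+ (SD, n = 3 each). Egr4 had the smallest Benjamini-Hochberg value of the members in limma, an adjusted p of 0.324, at a log2 difference of −0.65 (SE 0.29, interval −1.32 to 0.03). It was 1 of the 4 genes that stayed negative without Angptl2+/+ replicate 3, at −0.31 (adjusted p = 0.329, limma).

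Arc (ENSMUSG00000022602, chr15:74669083-74672570, minus strand) encodes a protein that drives the internalization of AMPA receptors, and its mRNA travels into dendrites. It was at 30, 24.5 and 37.9 FPKM in Angptl2-/- libraries, against 46.2, 32.5 and 149 FPKM in Angptl2+/+ libraries. Angptl2+/+ replicate 3 was 3.22-fold above the next library and 4.84-fold above the Angptl2-/- mean, the largest of these ratios among the members. Angptl2+/+ replicate 2 lay inside the Angptl2-/- range. The log2 fold change, −1.00 (SE 0.52, 95% interval −2.21 to 0.21), was the largest in size among the members (adjusted p = 0.369, limma). Without Angptl2+/+ replicate 3 it was −0.35 (interval −0.89 to 0.19, adjusted p = 0.384, limma).

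Npas4 (ENSMUSG00000045903, chr19:4984355-4990316, minus strand) is a bHLH-PAS factor that in the brain responds to calcium entry and not to growth factors alone. Its RefSeq start lies inside the GENCODE gene. It was at 2.58, 1.75 and 4.36 FPKM in Angptl2-/- brains, against 3.28, 1.77 and 9.2 FPKM in Angptl2+/+ brains. In each genotype replicate 2 was the lowest and replicate 3 the highest, and the ranges overlapped. With all libraries Npas4 changed by −0.47 on the log2 scale (SE 0.58, adjusted p = 0.696, limma), and by 0.16 (adjusted p = 0.84) without Angptl2+/+ replicate 3.

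Nr4a1 (ENSMUSG00000023034, chr15:101254269-101274795, plus strand), or Nur77, is an orphan nuclear receptor induced by activity. It was at 24.3, 15.5 and 24.2 FPKM in Angptl2-/- libraries, against 23.8, 17.6 and 58.7 FPKM in Angptl2+/+ libraries. Leaving aside Angptl2+/+ replicate 3, the other 5 libraries were mixed between genotypes. With that library the log2 difference was −0.48 (SE 0.43, adjusted p = 0.58, limma), and without it 0.03 (interval −0.54 to 0.60).

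Ier2 (ENSMUSG00000053560, chr8:84661331-84662852, minus strand), a nuclear protein gene of the general growth factor response, was at 9.53, 3.89 and 8.14 FPKM in Angptl2-/- brains, against 8.69, 7.4 and 13.7 FPKM in Angptl2+/+ brains. Its low value in Angptl2-/- replicate 2 and its high value in Angptl2+/+ replicate 3 were the extremes. Angptl2+/+ replicate 3 was 1.71-fold above the mean of the other Angptl2+/+ libraries, the smallest such ratio among the members. Its log2 difference was −0.51 (SE 0.36, adjusted p = 0.488, limma) and −0.25 without that library.

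**Figure D2:**
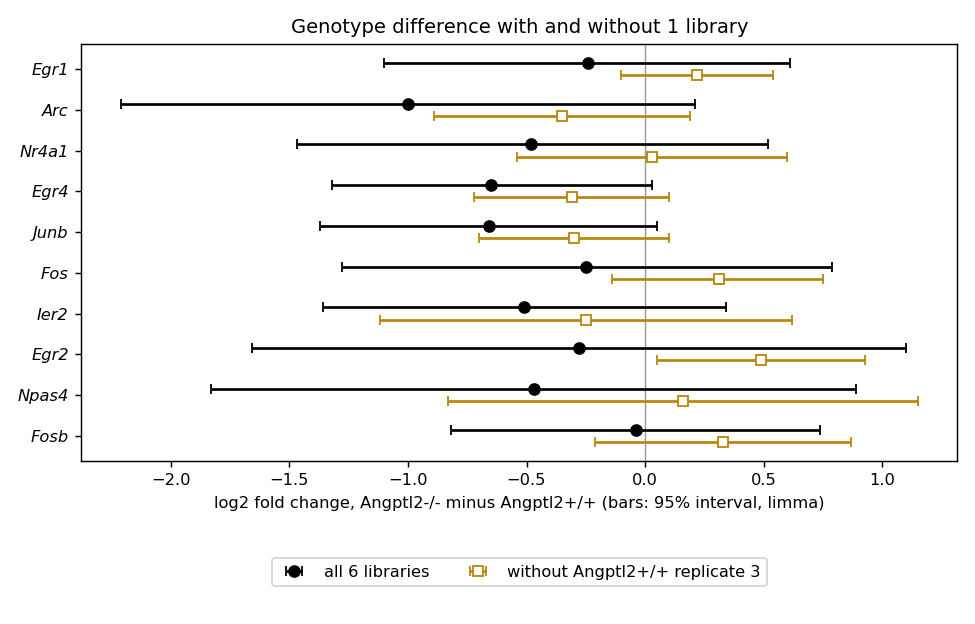
Log2 fold change (Angptl2-/- minus Angptl2+/+, x axis, with 95% limma intervals) of the 10 immediate early genes with all 6 libraries (black circles) and without Angptl2+/+ replicate 3 (open squares). All black points lie left of 0, from −1.00 for Arc to −0.04 for Fosb, and 6 of the 10 squares lie right of 0, up to 0.49 for Egr2.

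Across the members, 0 of 10 passed an adjusted p under 0.05 (limma, Benjamini-Hochberg), as did 0% of all genes tested in either direction. At a nominal p under 0.05, that is before adjustment, limma called 0 members higher and 0 lower, against 7.09% of all genes higher and 9.12% lower. Over all genes these shares are 1054 higher and 1355 lower, and scaling the libraries without mitochondrial and haemoglobin genes turned them to 1366 higher and 968 lower, while the members called at a nominal p stayed at 0. With voom, a count-based weighting in limma, on the calculated fragments, the adjusted p called 0 members and the nominal p called 2 lower, Junb and Egr4, against 8.27% of all genes in that fit. The nominal count also depended on single libraries, since it was 2 lower without Angptl2+/+ replicate 1 (Junb and Egr4, against 6.79% of all genes) and 2 lower without Angptl2+/+ replicate 2 (Junb and Arc, against 5.95%). Without Angptl2+/+ replicate 3 it was 0 lower, against 10.8% of all genes, and 1 higher (Egr2), which is near the 9.18% of all genes. In 1 member, Junb, all Angptl2-/- libraries were below all Angptl2+/+ libraries, and in 0 they were above. Over all genes 11.8% did not overlap in the lower direction and 10.7% in the higher direction, so that 1 of 10 is near this background. With 5 libraries genotypes separate more often by construction. The lower count was 2 without Angptl2-/- replicate 2 or Angptl2+/+ replicate 1, when Egr4 joined Junb (all genes, 14.5% and 16.6%), and 2 without Angptl2-/- replicate 3 or Angptl2+/+ replicate 2, when Arc did (15% and 15.5%). When Angptl2+/+ replicate 3 was left out, Junb was lower and Egr2 higher without overlap, against 21.5% of all genes in each direction.

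The libraries differed in the members as a group. The 10 genes summed to 182, 174 and 203 FPKM in Angptl2-/- replicates 1 to 3, against 200, 180 and 528 FPKM in Angptl2+/+ replicates 1 to 3. With each gene centred on its mean log2 level, their mean was −0.20, −0.43 and −0.07 in Angptl2-/- and −0.20, −0.32 and 1.21 in Angptl2+/+. Angptl2+/+ replicate 3 was thus high and the other 5 libraries were mixed, and Angptl2-/- replicate 2 was the lowest library for 5 of the 10 genes. Angptl2+/+ replicate 3 held the highest value of 10 of 10 members but of 18.2% of all genes tested. It exceeded the next library by at least 1 on the log2 scale in 48 genes (0.323% of those tested), and 7 of these were members. Ranked by that gap among 14862 genes, Arc was 9th, Egr2 13th, Nr4a1 25th, Fos 35th, Npas4 37th, Junb 39th and Egr1 41st. Fosb, Egr4 and Ier2 had smaller gaps, at ranks 104, 105 and 212. In the other 5 libraries 13 to 78 genes stood that far above the next library, and 0 of them were members.

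Within a genotype, the members varied by a median SD of 0.26 (log2 scale, range 0.04 to 0.68) among Angptl2-/- libraries and of 0.85 (0.46 to 1.33) among Angptl2+/+ libraries. The medians over all genes tested were 0.19 in Angptl2-/- and 0.20 in Angptl2+/+. Between Angptl2+/+ replicates 1 and 2 alone, the members differed by a median of 0.39, against 0.18 over all genes. The members thus had a wider spread than the median gene even without the high library.

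The mice also differed in sex as judged by transcripts. Ddx3y, on the Y chromosome, was at 9.26 to 14.7 FPKM in Angptl2-/- replicates 1 and 3 and at 9.96 FPKM in Angptl2+/+ replicate 3, and Xist, which marks female cells, was at 27.4 to 42.2 FPKM in the remaining 3 libraries. Among the libraries with Ddx3y, 10 of 10 members were lower in the 2 Angptl2-/- libraries than in the 1 Angptl2+/+ library, by log2 differences of −2.14 to −0.64 (median −1.30). This count was fixed in advance, since that Angptl2+/+ library is replicate 3, the highest for every member. Among the libraries with Xist, 4 members were higher and 6 lower in the 1 Angptl2-/- library than in the 2 Angptl2+/+ libraries (−1.02 to 0.76, median −0.32). These within-sex values have no test, and the only Angptl2+/+ library with Ddx3y was replicate 3, so its high values and its sex cannot be told apart within Angptl2+/+. The 2 Angptl2-/- libraries with Ddx3y had centred member means of −0.20 and −0.07. Whether sex bears on the members was not tested.

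**Figure D3:**
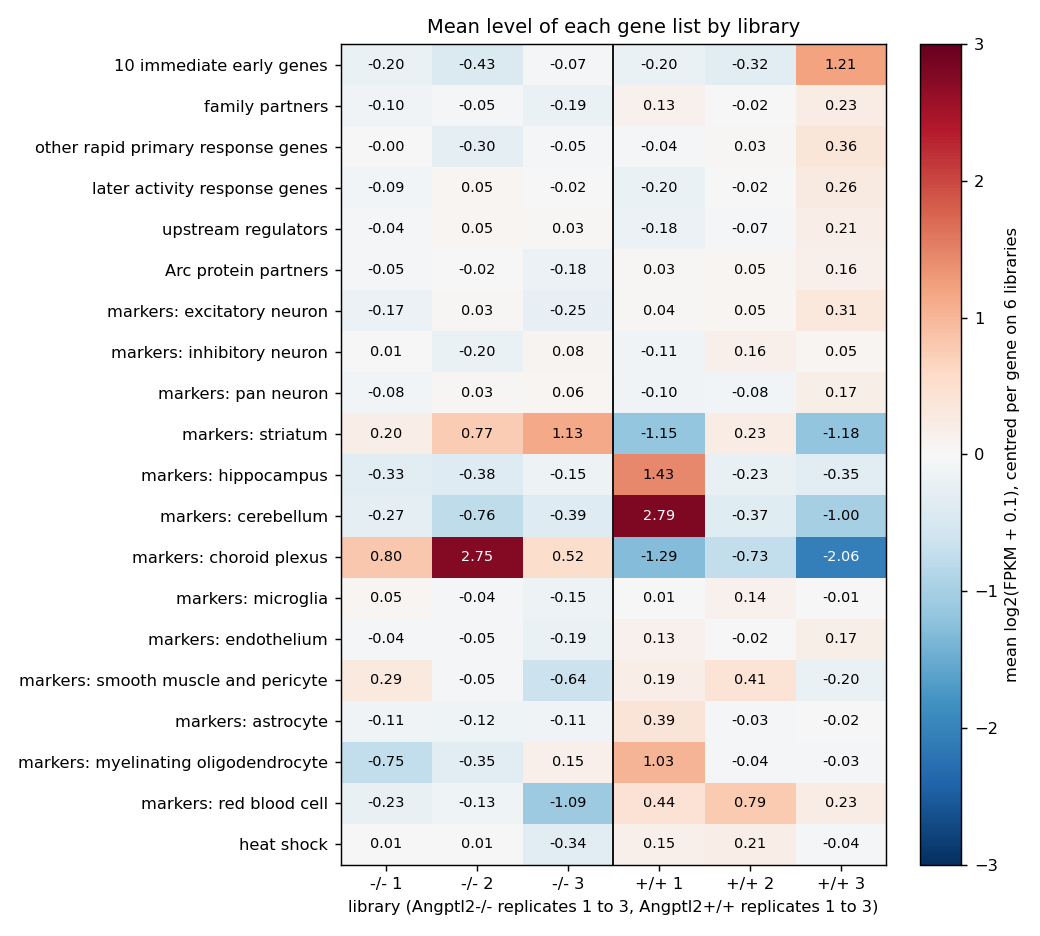
Mean log2(FPKM + 0.1), centred per gene on the 6 libraries, of the 10 immediate early genes, the related gene lists, the marker lists and the heat shock genes (rows) in each library (columns, Angptl2-/- left of the line, Angptl2+/+ right of it). The immediate early genes reach 1.21 in Angptl2+/+ replicate 3, the related lists reach 0.16 to 0.36 there, and the choroid plexus markers are at −2.06.

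Cell type and region markers also differed between these libraries. Markers of neurons, astrocytes and myelinating oligodendrocytes were present in all 6, as the label brain implies. Excitatory neuron markers were highest in Angptl2+/+ replicate 3 in 7 of 9 genes, with summed levels of 960 to 1185 FPKM in Angptl2-/- and 1208 to 1725 FPKM in Angptl2+/+, and none of the 9 was at 0. Their log2 fold changes were negative in 7 and positive in 2. A nominal p under 0.05 called 2 lower (limma), against 9.12% of all genes. Nrgn, a postsynaptic calmodulin-binding protein gene of forebrain neurons, was the most abundant, at 551, 683 and 534 FPKM in Angptl2-/- brains, against 797, 874 and 1123 FPKM in Angptl2+/+ brains. It made up most of each sum, so the sums largely follow this 1 gene. The 8 general neuron markers had a centred mean of 0.17 in Angptl2+/+ replicate 3 and the 8 inhibitory neuron markers one of 0.05, against 1.21 for the members. Red blood cell and endothelium sums were lower in Angptl2-/-, the direction of the log2 fold changes of the members. The sums of smooth muscle and pericyte markers overlapped. Of the 8 myelinating oligodendrocyte markers, 8 log2 fold changes were negative and 0 positive, with a median of −0.62. At a nominal p under 0.05, 3 of them were lower (limma), and their sums overlapped, at 566 to 1073 FPKM in Angptl2-/- and 889 to 1826 FPKM in Angptl2+/+. The 8 astrocyte markers had 3 positive and 5 negative values (median −0.17). The 5 red blood cell markers summed to 125 to 274 FPKM in Angptl2-/- and 302 to 498 FPKM in Angptl2+/+, and none was at 0. At a nominal p under 0.05, 5 of 5 were lower (0 by the adjusted p, limma), against 9.12% of all genes. The 8 endothelium markers summed to 64 to 74.1 FPKM in Angptl2-/- and 83.7 to 88.1 FPKM in Angptl2+/+, with 2 of 8 lower at a nominal p and none at 0. Their median log2 fold change was −0.09, with 2 positive and 6 negative. The 7 smooth muscle and pericyte markers summed to 44.2 to 68.2 FPKM in Angptl2-/- and 47.1 to 68.6 FPKM in Angptl2+/+. A nominal p under 0.05 called 1 higher and 0 lower of the 6 tested (limma), and Tagln was at 0 in at least 1 library. The part of these differences in the result was not tested.

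Regions differed more. The 9 striatum markers summed to 151 to 284 FPKM in Angptl2-/- and 67.4 to 158 FPKM in Angptl2+/+, with a centred mean of −1.18 in Angptl2+/+ replicate 3. The 8 cerebellum markers, of which Gabra6, Pcp2 and Barhl1 were at 0 in at least 1 library, had −1.00 there and 2.79 in Angptl2+/+ replicate 1. The 8 choroid plexus markers summed to 105 to 938 FPKM in Angptl2-/- and 1.69 to 8.1 FPKM in Angptl2+/+, with Kcne2 at 0 in at least 1 library. Angptl2+/+ replicate 3 thus had the lowest choroid plexus, striatum and cerebellum levels by centred mean together with the highest immediate early gene levels. By summed FPKM, striatum was lower in Angptl2+/+ replicate 1 (67.4 against 88.6) and cerebellum in Angptl2-/- replicate 2 (23.2 against 31.7). Angptl2-/- replicate 2, with the highest choroid plexus mean (2.75), had the lowest mean of the members. Angptl2-/- replicate 1 (choroid plexus 0.80) and Angptl2+/+ replicate 1 (−1.29) had the same member mean, −0.20. Whether the differing tissue makeup bears on the members was not tested. The 10 heat shock genes, which respond to cell stress, did not share the pattern of the members, with a centred mean of −0.04 in Angptl2+/+ replicate 3. They summed to 872 to 943 FPKM in Angptl2-/- and 796 to 837 FPKM in Angptl2+/+. A large part of each sum was Hspa8, at 424, 438 and 411 FPKM in Angptl2-/- and 385, 375 and 395 FPKM in Angptl2+/+. Across the list, 5 log2 fold changes were positive and 5 negative, with a median of −0.13. Mitochondrial transcripts, at 4.56% of fragments in Angptl2+/+ replicate 3, lay inside the range of the others (3.31 to 5.75%). The libraries held 17127280 to 18928921 calculated fragments, and Angptl2 itself, from few fragments, was at 0.166, 0.32 and 0.126 FPKM in Angptl2-/- and 0.66, 0.958 and 0.29 FPKM in Angptl2+/+, which overlap (two-sided exact permutation p = 0.2).

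Family partners of the members were followed next, in a list of 11 genes of which 9 were tested and Batf and Batf3 were too low. Their log2 fold changes were positive in 2 and negative in 7, with a median of −0.19. The adjusted p called 0 of them (limma), and a nominal p under 0.05 called 2 lower, against 9.12% of all genes. In this and the following lists the genes named had the 3 smallest p-values, a choice that favours genotypes without overlap. Over all genes 11.8% did not overlap in the lower direction and 10.7% in the higher direction. Without Angptl2+/+ replicate 1 the median was −0.31. Jund (ENSMUSG00000071076), the JUN gene that is expressed without stimulation, was at 25.7, 21.6 and 21.8 FPKM in Angptl2-/- brains, against 31.1, 39.7 and 30.3 FPKM in Angptl2+/+ brains. These genotypes did not overlap and Angptl2+/+ replicate 3 was the lowest Angptl2+/+ library, unlike in the members (log2 fold change −0.54, SE 0.14, adjusted p = 0.273, limma). Nab2 (ENSMUSG00000025402), a corepressor that EGR factors induce and bind, had 4.66, 4.98 and 3.18 FPKM in Angptl2-/- brains, against 5.89, 7.67 and 8.13 FPKM in Angptl2+/+ brains. It did not overlap between genotypes either, with a log2 difference of −0.76 (SE 0.20, adjusted p = 0.273, limma) and −0.67 without Angptl2+/+ replicate 3. The study picked Nab2 on these samples as a candidate gene, so this is not independent evidence. Its relative Nab1 was at 8.53, 9.45 and 10.6 FPKM in Angptl2-/- and 8.32, 7.12 and 8.42 FPKM in Angptl2+/+, a log2 fold change of 0.26 (adjusted p = 0.352, limma).

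Other genes of the rapid primary response, a list of 29 that are induced by growth factors, stress or activity, were less marked in Angptl2+/+ replicate 3. Of 28 tested, 15 were highest in that library, and their centred mean there was 0.36. The log2 fold change was negative in 22 and positive in 6, with a median of −0.28 and of −0.07 without Angptl2+/+ replicate 3. The adjusted p called 0, and a nominal p under 0.05 called 5 lower and 1 higher (limma), against 9.12% and 7.09% of all genes. Ier5 (ENSMUSG00000056708), an immediate early gene that modulates heat shock factor HSF1, was at 11.9, 16.8 and 10.3 FPKM in Angptl2-/- brains, against 20.2, 25 and 34.4 FPKM in Angptl2+/+ brains. Its paralogue Ier5l (ENSMUSG00000089762) was at 6.71, 4.57 and 4 FPKM in Angptl2-/- brains, against 8.96, 10.7 and 10.2 FPKM in Angptl2+/+ brains. Neither gene overlapped between genotypes, and in Ier5l the Angptl2+/+ libraries were even. Log2 fold changes were −1.02 (SE 0.24) for Ier5 and −0.98 (SE 0.19) for Ier5l, both with an adjusted p of 0.273 (limma), and −0.81 and −0.96 without Angptl2+/+ replicate 3. Ppp1r15a (ENSMUSG00000040435), the GADD34 subunit that directs a phosphatase to eIF2α, was at 2.98, 2.92 and 2.47 FPKM in Angptl2-/- and 4.31, 4.47 and 5.05 FPKM in Angptl2+/+. It was the gene with the smallest nominal p of this list, at a log2 difference of −0.70 (SE 0.13, adjusted p = 0.273, limma).

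Later activity response genes, which are induced by the factors above or over hours, were divided between the genotypes. Among 18 tested, 10 log2 fold changes were positive and 8 negative, with a median of 0.08, and of −0.09 without Angptl2+/+ replicate 1. The adjusted p called 0 of these, and a nominal p under 0.05 called 1 higher and 2 lower (limma), or 5 higher and 1 lower without Angptl2+/+ replicate 3. Over all genes the nominal shares were 7.09% higher and 9.12% lower, or 9.18% and 10.8% without that library. Inhba (ENSMUSG00000041324), the activin A subunit, was at 3.22, 3.53 and 3.29 FPKM in Angptl2-/- brains, against 1.29, 2.42 and 2.47 FPKM in Angptl2+/+ brains. These did not overlap, in the direction opposite to the members (log2 fold change 0.73, SE 0.25, adjusted p = 0.274, limma). Gadd45a was at 1.69, 1.54 and 1.28 FPKM in Angptl2-/- and 3.11, 2.11 and 2.6 FPKM in Angptl2+/+ (−0.75). Vgf, a neuropeptide precursor gene, was at 113, 98.8 and 75.9 FPKM in Angptl2-/- and 112, 155 and 120 FPKM in Angptl2+/+ (−0.44), and its genotypes overlapped.

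Upstream regulators, 30 genes of calcium, MAP kinase, CREB, SRF and MEF2 signalling, had 13 positive and 17 negative log2 fold changes, with a median of −0.04. Without Angptl2+/+ replicate 3 the median was 0.19, with 20 positive and 10 negative. A nominal p under 0.05 called 2 higher and 2 lower, or 6 higher and 1 lower without that library, and the adjusted p called 0 (limma). Over all genes the nominal shares were 7.09% higher and 9.12% lower, or 9.18% and 10.8% without that library. Srf (ENSMUSG00000015605), which encodes serum response factor, was at 14.6, 13.3 and 12.9 FPKM in Angptl2-/- brains, against 15.1, 18.9 and 23.8 FPKM in Angptl2+/+ brains. The genotypes did not overlap (log2 fold change −0.47, SE 0.17, adjusted p = 0.278, limma), and the highest library was again Angptl2+/+ replicate 3. Grin1, the obligatory NMDA receptor subunit, was at 40.3, 42.4 and 37.4 FPKM in Angptl2-/- and 45.2, 50 and 59 FPKM in Angptl2+/+ (−0.35, adjusted p = 0.277, limma). Rps6ka5, the MSK1 kinase that phosphorylates CREB, went the other way, at 2.21, 2.1 and 3.26 FPKM in Angptl2-/- and 1.96, 1.33 and 1.67 FPKM in Angptl2+/+ (0.57, adjusted p = 0.29, limma).

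Partners of the Arc protein and regulators of its turnover, 12 genes, had 4 positive and 8 negative log2 fold changes with a median of −0.27 (−0.17 without Angptl2-/- replicate 3, −0.19 without Angptl2+/+ replicate 3). A nominal p under 0.05 called 1 higher and 4 lower, against 7.09% and 9.12% of all genes, and the adjusted p called 0 (limma). Shank1, a scaffold of the postsynaptic density, was at 36, 34.7 and 23 FPKM in Angptl2-/- brains, against 37.4, 48.1 and 56.4 FPKM in Angptl2+/+ brains (−0.60, adjusted p = 0.277, limma). Sh3gl1, an endophilin of the endocytic machinery, was at 8.74, 7.06 and 6.72 FPKM in Angptl2-/- and 10.1, 9.8 and 8.94 FPKM in Angptl2+/+ (−0.36). Neither gene overlapped between genotypes, and their Angptl2+/+ libraries did not share an order. Ube3a, a ubiquitin ligase gene, was at 5.8, 7.3 and 9.08 FPKM in Angptl2-/- and 4.37, 4.39 and 5.83 FPKM in Angptl2+/+ (0.58, adjusted p = 0.274, limma), with a slight overlap.

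**Figure D4:**
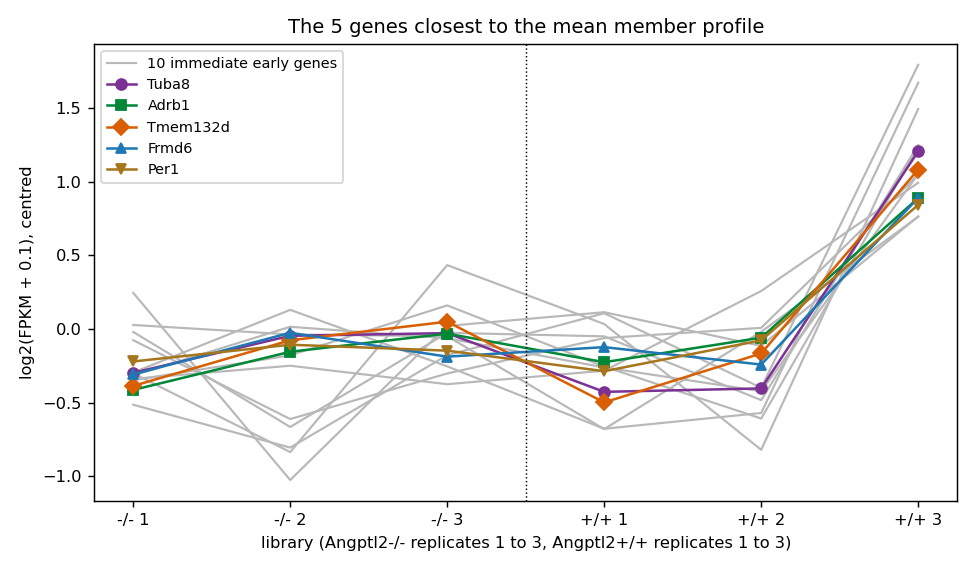
Log2(FPKM + 0.1), centred per gene (y axis), of the 10 immediate early genes (grey) and of the 5 genes outside the group closest to their mean profile (colours) across the 6 libraries (x axis, Angptl2-/- left of the dotted line). All lines are highest in Angptl2+/+ replicate 3, where Tuba8 is at 7.5 FPKM and Per1 at 27.9 FPKM.

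The genes outside the group with a profile most like the mean of the members were found by the root mean square difference of centred log2 levels over the 6 libraries, among protein-coding genes with a mean of at least 1 FPKM. They were Tuba8 (0.19), Adrb1 (0.22), Tmem132d (0.22), Frmd6 (0.22) and Per1 (0.23), where the members themselves lay at 0.15 (Nr4a1) to 0.39 (Ier2). Tuba8, an alpha tubulin gene, was at 2.58, 3.09 and 3.13 FPKM in Angptl2-/- and 2.35, 2.39 and 7.5 FPKM in Angptl2+/+. Adrb1, the beta-1 adrenergic receptor gene, was at 12.1, 14.5 and 15.8 FPKM in Angptl2-/- and 13.8, 15.5 and 30 FPKM in Angptl2+/+. Per1, a clock gene with a rapid response to CREB, was at 13.3, 14.4 and 14 FPKM in Angptl2-/- and 12.7, 14.7 and 27.9 FPKM in Angptl2+/+. In all 3 the other 5 libraries were close to each other and Angptl2+/+ replicate 3 stood alone. Tmem132d and Frmd6 reached 19.2 and 9.13 FPKM in that library, against at most 9.33 and 4.79 FPKM in Angptl2-/-. None of the 5 had an adjusted p under 0.05 (limma).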

How the data were processed

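Per the labels, the authors sequenced brain RNA as paired ends and deposited 1 FPKM value per gene and library, and no column was left out. Bowtie 0.12.2 and mm8 are named in the submitters' processing notes. How fragments were counted, with which annotation and whether by strand, is not given in the sources used here. Identifiers were matched to GENCODE M21, which holds 54495 of 54532 (37 unmatched). FPKM times exon length and depth gave whole fragments, within 0.05, for 96.5 to 96.7% of values.

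Genotypes were compared with limma 3.58.1 (R 4.3.3, empirical Bayes, intensity trend, two-sided) on log2(FPKM + 0.1) for the 14862 genes with a mean of at least 0.5 FPKM, all 10 members included, with Benjamini-Hochberg adjustment over all genes (threshold 0.05). On this scale changes of low genes come out too small. The code was tested on simulated data. The members and lists were chosen with earlier results of these data known. Named genes were the members, Angptl2, the 3 smallest p-values of each related list, the most abundant gene of each marker list, and the 5 nearest profiles (1 gene of this rule is not reported here). Others, such as Prdx2, Xist and Ddx3y, were chosen after their values were seen.

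Alternatives were other pseudocounts (1 or 0.01), other filters (none, or 1 FPKM), 3 scalings (quantile, median-ratio, and one that leaves out mitochondrial and haemoglobin genes), no trend, robust moderation, a replicate block, voom on fragments, and leaving out each library. Intervals from fragments cover counting error only. Python 3.11.15, pandas 2.3.3 and matplotlib 3.10.9 made tables and figures.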

Additional observations from a re-analysis of the deposited data

How the results depend on the processing

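Over 17 other settings the members kept the direction of their log2 fold change in 163 of 170 values, and none passed an adjusted p under 0.05 in limma (smallest 0.229, range per gene up to 0.229 to 0.938, for Egr2). Of the 7 that turned, 6 came from leaving out Angptl2+/+ replicate 3 and 1 from rescaling without mitochondrial and haemoglobin genes (Fosb 0.02). Over the left-out libraries, where the top of each range is the value without Angptl2+/+ replicate 3, Fos ranged from −0.61 to 0.31, Fosb from −0.39 to 0.33, Egr1 from −0.52 to 0.22, Egr2 from −0.69 to 0.49, Npas4 from −1.00 to 0.16 and Nr4a1 from −0.84 to 0.03. Leaving out each library gave 0 to 2 members lower and 0 to 1 higher at an unadjusted p under 0.05, 1 to 2 members lower without overlap and 0 to 1 higher, and a member median of −0.69 to 0.09. It moved the list medians to −0.31 to −0.12 (family partners), −0.33 to −0.07 (rapid response), −0.09 to 0.08 (later response), −0.07 to 0.19 (upstream regulators) and −0.31 to −0.17 (Arc partners). voom gave 2 members lower at an unadjusted p and 2 lower without overlap (10.1% of all genes), and quantile normalization gave 0 without overlap (9.86% of all genes). That rescaling also turned the split of all genes at an unadjusted p under 0.05 to 1366 higher and 968 lower, against 1054 and 1355, and quantile normalization to 1325 and 1150.

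The labels do not say whether the replicate numbers pair the libraries. Deviations of same-numbered libraries correlated over genes at 0.04, −0.07 and 0.16, against −0.26 to 0.26 for libraries with different numbers. These values cannot decide the pairing with 3 libraries per genotype. With the replicate block, 3 members were lower at an unadjusted p under 0.05 (Junb, Egr4 and Arc), against 10% of all genes in that fit, 0 passed the adjusted p, and Ttr, the most abundant choroid plexus marker, passed it (log2 fold change 6.92, adjusted p = 0.0233, limma).

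Without Angptl2+/+ replicate 3, 4 of the 5 nearest profiles turned, with ranges over the left-out libraries of −0.52 to 0.29 (Tuba8), −0.59 to 0.20 (Tmem132d), −0.56 to 0.01 (Frmd6) and −0.54 to 0.02 (Per1). These genes were picked for a profile like that of the members, so their turning is not separate evidence. Among marker genes, Tubb3 was 0.02 under quantile normalization, 0.00 under median-ratio scaling, 0.06 after rescaling and between −0.12 and 0.15 without single libraries. Slc1a2 was between −0.08 and 0.26 without single libraries. The cause of these changes was not tested beyond the library or scaling left out. The counting error of the members was at most 10% (1 SD).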

Other observations

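Further genes of neuronal activity were looked at after their values were seen, and are given as values. Egr3, the EGR family gene outside the group, was at 42.2, 44.6 and 40.4 FPKM in Angptl2-/- brains, against 32.6, 41.7 and 69.5 FPKM in Angptl2+/+ brains. Dusp6, a phosphatase gene that limits ERK signalling, was at 25.5, 29.5 and 32 FPKM in Angptl2-/- and 24.6, 26.1 and 50.8 FPKM in Angptl2+/+. Nptx2, a secreted pentraxin gene of excitatory synapses, was at 23.9, 30.1 and 32.1 FPKM in Angptl2-/- and 24.5, 35.8 and 51.2 FPKM in Angptl2+/+. Each of these was highest in Angptl2+/+ replicate 3, with overlapping genotypes. Nr4a2 and Btg2, also rapid response genes, were not, at 14.9 FPKM in Angptl2+/+ replicate 1 for Nr4a2 and 11.9 FPKM in Angptl2-/- replicate 1 for Btg2. Bdnf, a later target of Npas4 and CREB, was at 3.97, 5.25 and 4.39 FPKM in Angptl2-/- and 3.78, 4.17 and 4.97 FPKM in Angptl2+/+, with its highest value in Angptl2-/- replicate 2.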
